A study of Rattus norvegicus with 6 samples.

Results

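Matricellular proteins are secreted proteins that bind both the extracellular matrix and cell surface receptors and so set how cells attach, migrate and respond to growth factors. The group described here was listed as 9 genes, the thrombospondins Thbs1, Thbs2 and Thbs4, fibronectin (Fn1), fibronectin type III domain containing 1 (Fndc1), periostin (Postn), tenascin C (Tnc), Sparc and vimentin (Vim), and was selected on log2 differences between the diets in these same arrays, which are therefore given as a description. Members were found by their symbol in the platform annotation, keeping the brightest row of a symbol. Of the 9 symbols, 6 were named there, each by 1 transcript cluster, out of 14506 genes in all: Thbs1, Fn1, Fndc1, Postn, Sparc and Vim. Thbs2, Thbs4 and Tnc were not named in the annotation used and were not analysed here. The name matricellular is used broadly here: Thbs1, Postn and Sparc are classical matricellular proteins, whereas fibronectin is a structural matrix glycoprotein, Fndc1 is a secreted protein with fibronectin type III domains, and vimentin is an intermediate filament protein inside mesenchymal cells.

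The tissue was the gastrocnemius, a calf muscle, taken from Sprague-Dawley males with diet-induced obesity and hybridised to Affymetrix Rat Gene 1.0 ST arrays, whose values are log2 signals processed by the submitters. All rats began the diets at 12 weeks of age, ate freely for 8 weeks, and were 20 weeks old at sampling. Every diet was rich in fat and sucrose, held 4.6 kcal/g and gave 10% of its energy as protein. The leucine diet took 7.1% of its energy from casein and 2.9% from leucine, the dairy diet took its protein from skim milk powder, and the casein diet, with casein alone, was the control. Each diet had 2 arrays, although the design text speaks of 4 rats per diet, and the labels leave unsaid whether each array is 1 rat, so every standard error and p-value covers only the spread between these arrays, which may be technical.

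In muscle, these transcripts come mainly from fibroblasts, tendon cells, vessel walls and other cells between the fibres rather than from the fibres themselves. Fibronectin is assembled by cells into fibrils through integrins, and a soluble form is made by hepatocytes. Thrombospondin 1 is released by platelets, endothelial cells and fibroblasts, binds the receptors CD36 and CD47, and can activate latent TGF-beta. Periostin and Sparc bind collagen and take part in its fibril assembly. In whole muscle, fewer cells of a type and less RNA per cell cannot be told apart.

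The labels name muscle, while the protocol text speaks of liver at the storage and RNA extraction steps. Fast-fibre transcripts had a median level percentile of 99.9 among all genes, with mean levels between 11.9 and 12.5 on every array, so muscle was present on each. Casein array 2 stood apart, with a mean correlation of 0.974 with the other arrays, against 0.985 to 0.988 for the rest. Its slow-fibre markers had a mean level of 5.87, against 9.53 to 10.3 on the other 5 arrays, and its hepatocyte markers a mean of 6.90, against 3.51 to 5.53. For the members, each casein comparison is therefore also given without that array, and for the gene lists where its absence moved a printed value by about 1.5 times or more.

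For the 4 genes with both leucine arrays below all others and a RefSeq promoter window at their start, the 250 bases before their annotated start are shown (RefSeq, build GRCr8, each read 5′ to 3′ on the gene's strand). Capitals mark matches, on either strand, to GGAATG (the TEAD motif), CCAAT (the CCAAT box), GGGCGG (the GC box), TATAAA (the TATA box) and CAGAC (a SMAD motif). TGANTCA, the AP-1 motif, was also searched. Thbs1 and Sparc each hold a TEAD motif, and Thbs1, Fndc1 and Vim hold a GC box.
Thbs1, chr3:125510000-125510249, plus strand:
Thbs1: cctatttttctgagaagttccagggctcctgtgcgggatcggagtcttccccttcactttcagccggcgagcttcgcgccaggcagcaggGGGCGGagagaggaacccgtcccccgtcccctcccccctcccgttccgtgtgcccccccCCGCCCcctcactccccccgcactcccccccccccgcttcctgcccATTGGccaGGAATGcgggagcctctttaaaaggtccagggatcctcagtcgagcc
Fndc1, chr1:49686606-49686855, plus strand:
Fndc1: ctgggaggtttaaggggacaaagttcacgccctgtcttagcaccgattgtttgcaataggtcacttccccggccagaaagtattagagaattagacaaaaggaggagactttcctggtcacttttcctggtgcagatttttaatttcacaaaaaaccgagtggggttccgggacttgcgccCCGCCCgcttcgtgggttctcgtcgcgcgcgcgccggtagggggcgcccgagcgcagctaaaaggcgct
Sparc, chr10:40038817-40039066, minus strand:
Sparc: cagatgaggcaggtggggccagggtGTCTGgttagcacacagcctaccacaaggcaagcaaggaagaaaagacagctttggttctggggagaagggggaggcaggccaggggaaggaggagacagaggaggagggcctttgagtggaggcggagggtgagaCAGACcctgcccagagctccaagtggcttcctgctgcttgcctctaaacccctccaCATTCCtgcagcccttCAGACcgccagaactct
Vim, chr17:81577011-81577260, plus strand:
Vim: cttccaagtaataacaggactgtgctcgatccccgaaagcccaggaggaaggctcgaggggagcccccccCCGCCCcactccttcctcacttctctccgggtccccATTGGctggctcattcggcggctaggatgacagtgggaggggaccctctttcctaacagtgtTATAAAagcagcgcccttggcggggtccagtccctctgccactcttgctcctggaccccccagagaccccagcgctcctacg

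The 4 windows were rich in G and C, at 67.6% in Thbs1, 55.2% in Fndc1, 60.0% in Sparc and 62.4% in Vim, where the median of 33465 windows of the same length was 51.2%. The GGAATG match of Thbs1 ran from base 47 to base 42 before the start and that of Sparc from base 33 to base 28, and 12.1% of all windows held such a match. In Thbs1 a CCAAT match, written ATTGG on the strand shown, ended at base 51 before the start, a few bases away from the GGAATG match, and Vim held one from base 144 to base 140. CCAAT was present in 34.0% of all windows, the GC box in 30.5%, the TATA motif in 12.9%, CAGAC in 42.9% and TGANTCA in 6.34%. Vim held the TATA motif, Sparc held CAGAC at 3 places, and none of the 4 windows held TGANTCA. No motif overlapped another in these windows. A match is a run of letters, not a tested binding site. Of the 6 genes, Fn1 had no window in the table and that of Postn did not begin at the gene's first annotated base, so neither is shown.

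The genes differed widely in level. Sparc and Vim were among the brightest transcripts, with means over the 6 arrays at percentiles 97.7 and 97.4 of all genes. Fn1 lay at percentile 90.3, Fndc1 at 78.0, Thbs1 at 65.2 and Postn at 64.4. Signals of different probes are not on a common scale, so these percentiles say only that all 6 lay above the median gene.

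With leucine, all 6 genes had lower means than with casein and with dairy protein, by up to 4.02-fold. Dairy protein did not share that direction: 5 of the 6 means were higher with dairy than with casein, and Thbs1 was the exception. Of these 5, only Fndc1 had dairy and casein arrays that did not overlap. Over all genes, 51.1% had a higher mean with dairy than with casein. None of these differences passed the test over all genes, so each is given as a level and a difference with its error.

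Thbs1, which encodes thrombospondin 1, had log2 signals of 4.62 and 4.20 on the leucine arrays, 5.07 and 5.32 on the dairy arrays and 6.10 and 6.19 on the casein arrays. The 3 diets did not overlap in any pair, and leucine was lowest and casein highest. The log2 fold change was −1.74 ± 0.18 for leucine against casein (SE of the model, n = 2 arrays each), or 3.33-fold lower. It was −0.95 ± 0.18 for dairy against casein and −0.79 ± 0.18 for leucine against dairy. Without casein array 2 the first was −1.69 and the second −0.90.

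Fn1, which encodes fibronectin, had log2 signals of 6.10 and 6.49 with leucine, 8.66 and 7.85 with dairy and 7.73 and 8.03 with casein. Both leucine arrays lay below all others, while the dairy and casein arrays overlapped. The log2 fold change was −1.59 ± 0.33 for leucine against casein, 3.00-fold lower, and −1.96 ± 0.33 for leucine against dairy, 3.89-fold lower. For dairy against casein it was 0.37 ± 0.33, which is −0.03 when dairy array 1, the brighter of the pair, is left out.

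Fndc1, a secreted protein with fibronectin type III repeats, had log2 signals of 5.23 and 5.13 with leucine, 7.43 and 6.95 with dairy and 6.18 and 6.43 with casein. Its 3 diets did not overlap either, but the order was leucine, casein, dairy from low to high. The log2 fold change was −1.13 ± 0.19 for leucine against casein and 0.88 ± 0.19 for dairy against casein, so the diets lay on opposite sides of the control. Leucine against dairy gave −2.01 ± 0.19, 4.02-fold lower, the 5th largest difference in size among 14506 genes in that comparison, where Fn1 was 8th.

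Sparc, a collagen-binding glycoprotein also called osteonectin, had log2 signals of 8.69 and 8.48 with leucine, 9.39 and 9.68 with dairy and 9.16 and 9.45 with casein. Vim, the filament protein of fibroblasts, endothelial cells and leukocytes, had 8.47 and 8.57 with leucine, 9.48 and 9.26 with dairy and 9.19 and 9.28 with casein. In both genes the leucine arrays were the lowest, and dairy and casein overlapped. For leucine against casein, Sparc stood at −0.72 ± 0.17 and Vim at −0.71 ± 0.11 on the log2 scale, 1.65-fold and 1.64-fold lower. Against dairy they stood at −0.95 ± 0.17 and −0.85 ± 0.11. Dairy against casein gave 0.23 ± 0.17 for Sparc and 0.14 ± 0.11 for Vim, both of the order of their standard errors.

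Postn, which encodes periostin, was the most variable of the 6. It had log2 signals of 3.79 and 5.21 with leucine, 6.67 and 5.43 with dairy and 4.57 and 5.46 with casein. Arrays of the same diet differed by 1.42 with leucine, 1.24 with dairy and 0.89 with casein, and the leucine and casein arrays overlapped. The pooled SD within diets was 0.85, larger than in 98.8% of all genes, whereas for the other 5 members it ran from 0.11 in Vim to 0.39 in Fn1. The log2 fold change was −0.51 ± 0.71 for leucine against casein, 1.04 ± 0.71 for dairy against casein and −1.55 ± 0.71 for leucine against dairy. The first changed sign, to 0.20, without leucine array 1.

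**Figure D1:**
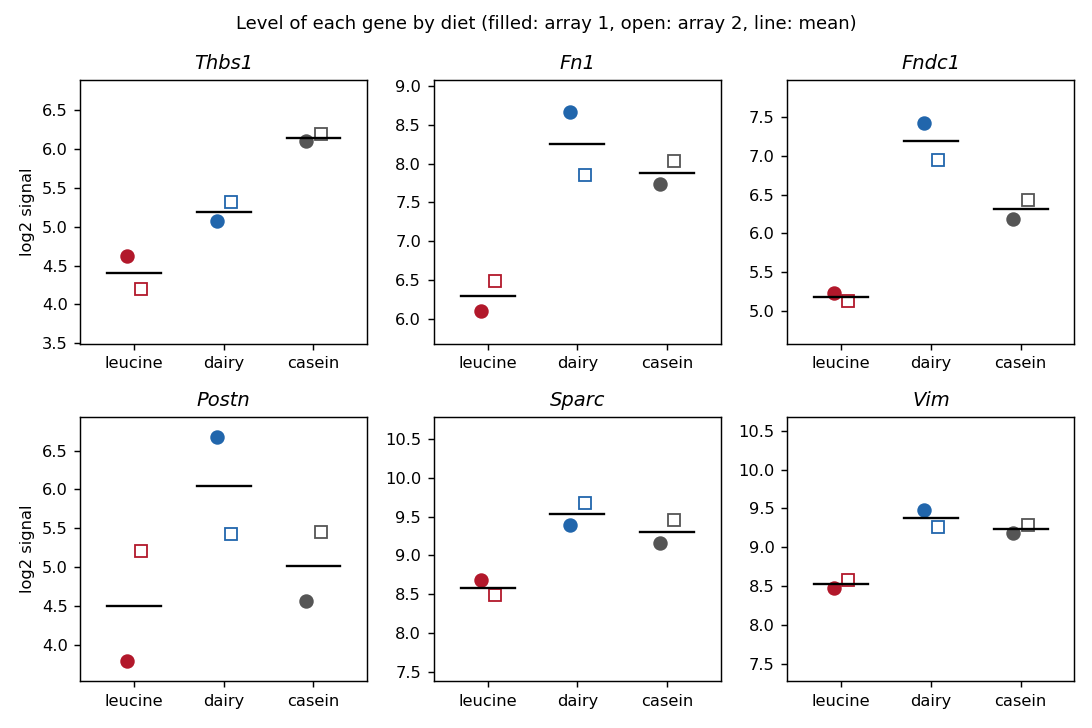
Log2 signal (vertical axes, each spanning the same width) of the 6 genes in the leucine, dairy and casein diets, with array 1 filled, array 2 open and the mean of the 2 arrays as a line. Both leucine arrays lie below the other 4 in Thbs1, Fn1, Fndc1, Sparc and Vim, casein is highest in Thbs1, dairy is highest in Fndc1, and the arrays of a diet lie far apart in Postn.

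Over all genes, limma called 0 of 14506 in each of the 3 comparisons at a Benjamini-Hochberg adjusted p of 0.05 (0% of genes), and so 0 of the 6 members. The lowest adjusted p of any member was 0.353 for leucine against casein, 0.833 for dairy against casein and 0.514 for leucine against dairy. The members were picked with these differences known, so the counts that follow are descriptions. At an unadjusted p of 0.05, 5 of the 6 were lower with leucine than with casein (Postn was not among them), where 4.85% of all genes were. The same 5 were lower with leucine than with dairy, where 3.45% of all genes were. For dairy against casein Thbs1 was lower, where 2.31% of all genes were, and Fndc1 higher, where 2.49% were. More than 2-fold lower with leucine were Thbs1, Fn1 and Fndc1 against casein (0.979% of all genes), and Fn1, Fndc1 and Postn against dairy (0.565%). Postn was also more than 2-fold higher with dairy than with casein (0.241% of all genes), though its arrays overlapped.

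Leucine lay below the other diet without overlap in 5 of the 6 for leucine against casein (15.6% of all genes) and in 6 of 6 for leucine against dairy (14.9%). For dairy against casein the arrays were apart in Thbs1, with dairy the lower (11.7% of all genes), and in Fndc1, with dairy the higher (11.5%). In 5 of the 6 both leucine arrays lay below the 4 others, which held for 8.02% of all genes. The median log2 fold change of the 6 was −0.92 for leucine against casein, 0.30 for dairy against casein and −1.25 for leucine against dairy, where the median of all genes was 0.0028 for dairy against casein and smaller still in size in the others. The leucine and dairy comparisons share the casein arrays, and both leucine comparisons share the leucine arrays, so they are not independent of each other.

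**Figure D2:**
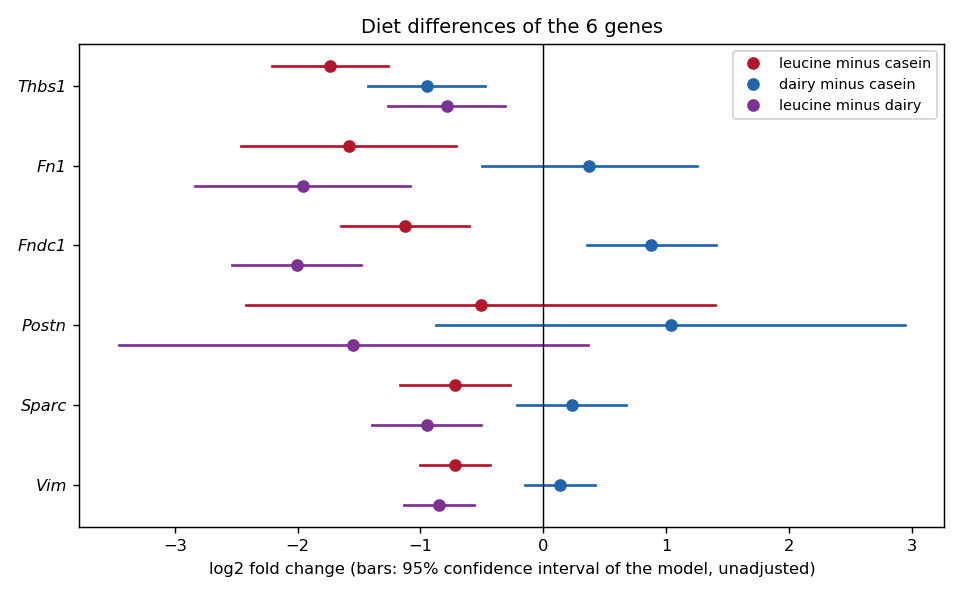
Log2 fold change (horizontal axis) of the 6 genes in the 3 comparisons, as points with the model's unadjusted 95% confidence intervals as bars. Leucine against casein and leucine against dairy lie below 0 for all 6 points, dairy against casein lies below 0 for Thbs1 (−0.95) and above it for the other 5, and the bars of Postn are the widest and cross 0 in each comparison.

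Among the members, Fn1 and Vim followed each other most closely over the 6 arrays, with a Pearson r of 0.994, and Fndc1 ran with Vim (0.950) and Fn1 (0.948). Thbs1 stood aside, with r between 0.09 (Postn) and 0.69 (Vim and Sparc) with the other members. These correlations describe 6 arrays of 3 diets and carry no test. Of 1795 genes above the median gene whose SD over the arrays was at least 0.3, those most like Fn1 were Vim, Pcolce, an enhancer of procollagen C-proteinase (0.994), and Ccdc12 (0.994). Those most like Vim were Pcolce (0.996), Ccdc12 (0.995) and Fn1. Fndc1 was most like Emp1 (0.990), Col3a1, the chain of type III collagen (0.987), and Csf1r, the macrophage colony-stimulating factor receptor (0.981). Sparc was most like Emp3 (0.984), Sulf2 (0.976) and Cacnb1 (0.970). Postn was most like Crcp (0.976), Stat2 (0.971) and Ccdc167 (0.943). Thbs1 was most like Msra, a methionine sulfoxide reductase (0.973), C3h11orf96 (0.963) and Msl3l2 (0.958).

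The other matricellular genes, from a list of 35 of which 27 were measured, had 21 of 27 lower with leucine than with casein, and their median difference was −0.28 (log2). Of these, 0 passed over all genes, and 10 were lower and 0 higher at an unadjusted p of 0.05, where 4.85% of all genes were lower and 4.76% higher. Leucine against dairy gave the same counts, with a median of −0.25, where 3.45% of all genes were lower. Dairy against casein had 19 of 27 higher, with a median of 0.15, and 1 of them, near the 2.49% of all genes, was higher at an unadjusted p of 0.05. The list's mean level ran from 5.05 to 5.08 on the leucine arrays, 5.45 to 5.49 on the dairy arrays and 5.35 to 5.39 on the casein arrays, with no overlap between any pair of diets. Aebp1, a collagen-binding protein of fibroblasts, stood at −1.54 ± 0.38 for leucine against casein, Fbln1, or fibulin 1, at −1.09 ± 0.30, and Tgfbi, a TGF-beta-induced matrix protein, at −0.74 ± 0.27. For leucine against dairy, Aebp1 stood at −1.80 ± 0.38, Fbln1 at −1.44 ± 0.30 and Lgals3, the macrophage lectin galectin 3, at −1.14 ± 0.35. For dairy against casein the largest separated difference was in Ccn1, at 0.61 ± 0.29, with log2 signals of 7.04 and 6.71 on the dairy arrays and 5.92 and 6.61 on the casein arrays, and it was 0.96 without casein array 2. Without casein array 2, dairy against casein had 14 of 27 higher and a median of 0.04.

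Comp, or thrombospondin 5, was the other thrombospondin measured, and was chosen for mention after its values were seen. Its log2 signals were 3.80 and 3.898 with leucine, 3.96 and 4.24 with dairy and 4.74 and 4.24 with casein, so leucine was again the lowest diet. Among the Sparc relatives, Sparcl1 had 8.70 and 8.76 with leucine, 8.74 and 9.03 with dairy and 8.79 and 8.64 with casein. Smoc2 had 6.59 and 6.35 with leucine, 6.23 and 6.53 with dairy and 6.24 and 5.86 with casein. Unlike Sparc, neither was lowest with leucine, and both were likewise picked after their values were seen.

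Of 25 receptors and binding partners measured, 17 were lower with leucine than with casein, with a median of −0.10, and 3 were lower and 1 higher at an unadjusted p of 0.05, the second near the background of 4.76% of all genes and the first beside 4.85%. Leucine against dairy gave a median of −0.09 and dairy against casein one of 0.04 (−0.0066 without casein array 2), with 0 called over all genes in any comparison. Cd36, the fatty acid transporter that also binds thrombospondin 1, went the other way from its ligand, at 10.2 on both leucine arrays, 9.29 and 10.1 on the dairy arrays and 9.70 and 8.62 on the casein arrays. Its log2 fold change for leucine against casein was 1.06 ± 0.46, or 0.52 without casein array 2. Ddr2, a collagen receptor of fibroblasts, stood at −0.62 ± 0.19 for leucine against casein and −0.96 ± 0.19 for leucine against dairy. Lrp1, the endocytic receptor that clears thrombospondin, stood at −0.56 ± 0.08 for leucine against dairy. The integrin chains Itga5 and Itgb1, which together form the classical fibronectin receptor, and Cd47, each named for its role with the values in view, had leucine arrays that overlapped those of another diet or lay close to them. Itga5 had 4.70 and 4.43 with leucine, 5.12 and 4.51 with dairy and 4.68 and 5.12 with casein. Itgb1 ran from 8.94 to 9.11 and Cd47 from 7.26 to 7.51 over all 6 arrays.

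TGF-beta ligands, carriers, receptors and signal transducers were lower with leucine than with casein in 12 of 17 and than with dairy in 13 of 17, with medians of −0.05 (−0.091 without casein array 2) and −0.21, and higher with dairy than with casein in 13 of 17, with a median of 0.12. Tgfbr3, the co-receptor betaglycan, stood at −0.43 ± 0.20 for leucine against casein, 0.46 ± 0.20 for dairy against casein and −0.89 ± 0.20 for leucine against dairy. Furin, a protease that cleaves the TGF-beta precursor, went the other way with leucine. It stood at 0.26 ± 0.07 for leucine against casein and 0.26 ± 0.07 for dairy against casein. In the first it was the 1 gene of 17 at an unadjusted limma p of 0.05, near the 4.76% of all genes that were higher. At that threshold 3 of 17 were higher for dairy against casein, beside 2.49% of all genes. For leucine against dairy 2 of 17 were lower, beside 3.45%. Ccn2, a TGF-beta target also known as connective tissue growth factor, and picked after its values were seen, had 6.01 and 6.33 with leucine, 6.33 on both dairy arrays and 6.75 and 6.15 with casein. Tgfb1, likewise picked after its values were seen, had 4.997 and 5.19 with leucine, 5.08 and 6.22 with dairy and 5.19 and 6.34 with casein. Neither gene separated the diets as Thbs1 did.

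Of 9 other fibronectin type III domain genes, 6 were higher with leucine than with casein, beside 49.0% of all genes. The list's median was 0.10. Fndc3a stood at 0.57 ± 0.12 and Fndc5, the precursor of irisin, at 0.28 ± 0.33 in that comparison, which was 0.044 without casein array 2. Other intermediate filament genes were lower with leucine than with casein in 8 of 10, with a median of −0.13 (−0.20 without casein array 2). Lmna, which encodes the nuclear lamins A and C, was higher by 0.28 ± 0.11 for leucine against casein and by 0.35 ± 0.11 for dairy against casein, or 0.15 and 0.22 without casein array 2. Des, the filament protein of muscle fibres, stood at −0.26 ± 0.14 for leucine against dairy. Partners of fibronectin at focal adhesions were mixed for leucine against casein, with 7 of 17 lower and a median of 0.03, and 12 of 17 lower against dairy, with a median of −0.11. Actn1, the non-muscle alpha-actinin, stood at −0.35 ± 0.07 for leucine against casein and −0.42 ± 0.07 against dairy. In these 3 lists and in the TGF-beta list 0 genes passed over all genes in any comparison.

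Markers of cell types that can make these proteins are given next, of which 0 passed over all genes in any comparison. Fibroblast markers were lower with leucine than with casein in 11 of 11 and than with dairy in 11 of 11, with medians of −0.59 and −1.13. Dairy against casein had 11 of 11 higher, with a median of 0.19, and 8 of 11 higher without casein array 2. Their mean level was 6.04 to 6.11 on the leucine arrays, 6.90 to 7.46 on the dairy arrays and 6.897 to 6.900 on the casein arrays. Averaged over the list, the log2 difference between leucine and casein was −0.82. Beside it stood −1.74 for Thbs1, −1.59 for Fn1, −1.13 for Fndc1, −0.72 for Sparc and −0.71 for Vim. Postn, whose leucine and casein arrays overlapped, stood at −0.51, or −0.065 without casein array 2. For leucine against casein, the type I collagen gene Col1a1 differed by −1.94 ± 0.27 and, for leucine against dairy, Col3a1 differed by −1.44 ± 0.17.

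Tendon markers, of which Comp is also in the list of matricellular genes, were lower with leucine in 7 of 7 against either diet, with a mean level of 3.71 to 3.96 on the leucine arrays, 4.31 to 5.54 on the dairy arrays and 5.29 to 5.43 on the casein arrays. Fmod, the collagen-binding proteoglycan fibromodulin, had 3.24 and 3.50 with leucine, 4.27 and 6.91 with dairy and 6.67 and 6.61 with casein. The dairy arrays lay far apart in Fmod and differed by 0.25 in Thbs1, while the leucine and casein groups lay apart in both genes. Cilp, a matrix protein of cartilage and tendon, followed the order of Fndc1. Its log2 signals were 3.95 and 4.68 with leucine, 6.05 and 6.27 with dairy and 4.82 and 4.88 with casein. It was the only tendon marker higher with dairy than with casein. The other 6 of 7 were lower, and the list's median was −0.51.

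Macrophage markers were lower with leucine than with casein in 11 of 11, and without casein array 2 in 5 of 11. Against dairy, a difference that does not use that array, 11 of 11 were lower, with a median of −0.69. Their mean levels were 4.33 to 4.36 on the leucine arrays, 4.99 to 5.07 on the dairy arrays and 4.37 and 5.46 on the casein arrays. Adipocyte markers were lower with leucine in 6 of 7 against casein and in 7 of 7 against dairy. Their mean levels were 4.13 to 4.23 with leucine, 4.35 to 5.37 with dairy and 4.74 to 5.48 with casein. Smooth muscle and pericyte markers ran from 6.40 to 6.56 with leucine, 6.54 to 6.61 with dairy and 6.45 to 6.62 with casein. Endothelial markers were not lower with leucine than with casein, at 6.29 on both leucine arrays, 6.38 to 6.45 on the dairy arrays and 5.86 to 6.20 on the casein arrays. Platelet markers, which bear on Thbs1, all lay below the median gene, with mean levels of 3.16 on the leucine and dairy arrays and 3.33 on both casein arrays. The part of any of these cell types in the differences of the 6 genes was not tested.

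Hepatocytes make a soluble fibronectin. The mean level of their markers was 3.51 and 5.53 on the leucine arrays, 4.41 and 3.60 on the dairy arrays and 4.92 and 6.90 on the casein arrays. Alb, the albumin gene, had log2 signals of 4.81 and 9.80 with leucine, a gap of 4.98, where Fn1 differed by 0.39 between the same arrays. The dairy arrays differed by 2.57 in Alb and 0.81 in Fn1, and the casein arrays by 2.21 in Alb and 0.30 in Fn1. In each diet the array with the higher Alb also had the higher Fn1, and the part of hepatocyte RNA in Fn1 was not tested. Slow-fibre markers had mean levels of 9.90 to 10.3 with leucine, 9.53 to 9.74 with dairy and 9.93 and 5.87 with casein. The casein arrays thus differed by 4.06 in slow-fibre and 1.98 in hepatocyte markers, and by 0.09 in Thbs1, 0.10 in Vim, 0.25 in Fndc1, 0.29 in Sparc, 0.30 in Fn1 and 0.89 in Postn. Without casein array 2, leucine against casein stood at −1.44 for Fn1, −1.002 for Fndc1, −0.57 for Sparc and −0.67 for Vim, and at −0.065 for Postn. On the same footing dairy against casein stood at 0.52 for Fn1, 1.01 for Fndc1, 1.48 for Postn, 0.38 for Sparc and 0.18 for Vim. Fibroblast markers were then lower with leucine than with casein in 10 of 11 and tendon markers in 7 of 7.

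**Figure D3:**
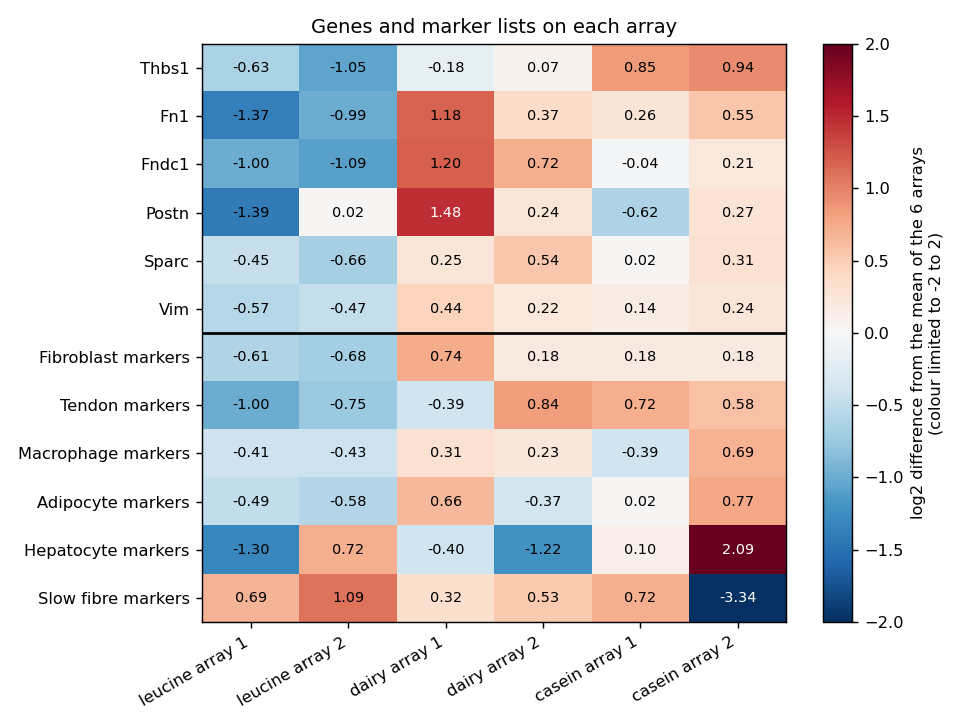
Log2 difference of each array from the mean of the 6 arrays, in colour and digits, for the 6 genes (top) and for the mean of 6 marker lists (bottom), with arrays in columns and colour limited to −2 to 2. Fibroblast markers are low on both leucine arrays (−0.61 and −0.68), as are 5 of the genes, whereas hepatocyte markers (2.09) and slow-fibre markers (−3.34) set casein array 2 apart.

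Leaving out each array in turn moved Thbs1 between −1.95 and −1.53 for leucine against casein, Fn1 between −1.78 and −1.39, Fndc1 between −1.25 and −1.002, Sparc between −0.86 and −0.57 and Vim between −0.77 and −0.66. For dairy against casein, Fndc1 stayed between 0.64 and 1.12 and Thbs1 between −1.07 and −0.83. The smaller dairy differences depended on single arrays: Postn was 0.42 and Vim 0.022 without dairy array 1, and Sparc was 0.086 without casein array 1. The highest values were 1.66 for Postn and 0.25 for Vim without dairy array 2, and 0.38 for Sparc without casein array 2. For leucine against dairy all 6 stayed below 0 in every such fit, with Postn between −2.26 and −0.84. Where the arrays of 2 diets do not overlap, leaving 1 out cannot turn the sign. That was so for all 6 genes in leucine against dairy and for 5 in leucine against casein. For dairy against casein it was so for Thbs1 and Fndc1. A diet with 1 array left was assumed to vary like the others.

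**Figure D4:**
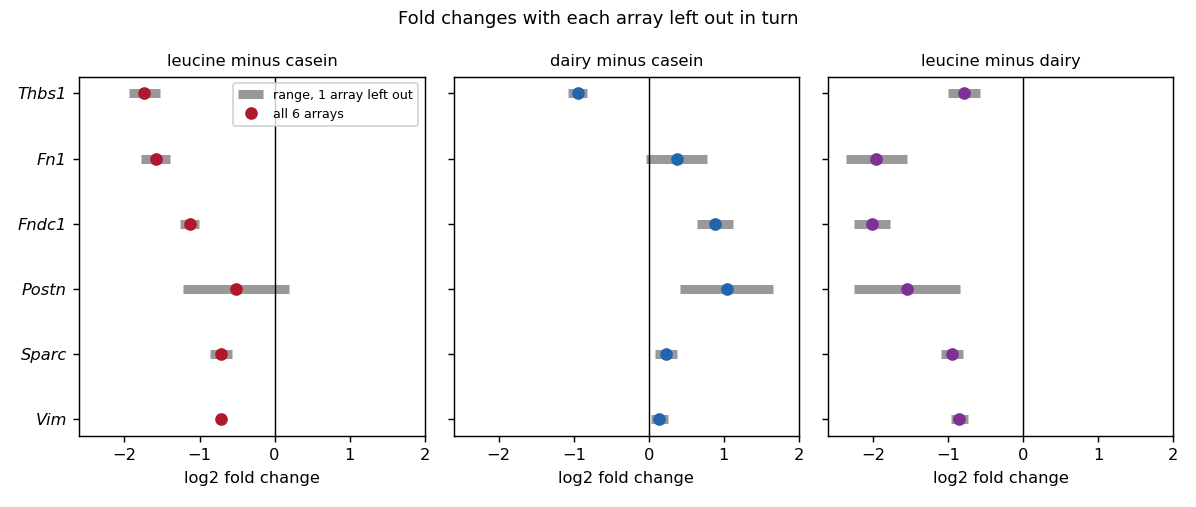
Log2 fold change (horizontal axes) of the 6 genes in the 3 comparisons with all 6 arrays (points) and its range when each array is left out in turn (grey bars). The bars of Postn for leucine against casein (−1.22 to 0.20) and of Fn1 for dairy against casein (−0.03 to 0.78) cross 0, and the others do not.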

How the data were processed

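RNA of gastrocnemius muscle was hybridised to 6 arrays, 2 per diet. The authors deposited log2 signals per transcript cluster, and per the submitters' processing notes the tool was Affymetrix Expression Console. Its version, background correction and normalization are not given in the sources used here. Values lay on a log2 scale, between 1.14 and 13.7 with medians per array of 3.46 to 3.56. Background readings were not used here, and the small number of arrays limits the precision.

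Of 29214 clusters, 15310 had 1 gene in the platform annotation, 323 had several and 13581 had none. Symbols were updated through RefSeq GRCr8, by gene identifier for 15279 clusters and by accession for 6, and 25 kept the platform symbol. The brightest cluster per symbol gave 14506 genes, with no filter on dim genes. limma 3.58.1 in R 4.3.3 was fitted to all 6 arrays with diet as its only term (3 residual degrees of freedom), with p-values adjusted by Benjamini-Hochberg over all genes, and was tested on simulated data. Replicate numbers were not used to pair the arrays, since the labels do not say whether a number marks a shared animal or batch. Differences between arrays 1 and 2 were correlated across genes. The correlations were 0.179 between leucine and casein, 0.0865 between dairy and casein and 0.0536 between leucine and dairy. Not all were above 0.1, the level set for using a block, but whether the numbers mark pairs is not known. The alternatives were quantile normalization, a filter at the median gene, robust limma-trend, the mean over clusters, a fit of only the diets compared, a replicate block and leaving out each array.

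Members and gene lists were chosen with earlier results of these data known. All measured members are named. Of each other list, up to 3 genes per comparison were eligible for naming, those above the median gene whose arrays did not overlap and with the largest difference, and any other gene is said to be chosen after its values were seen. Likeness was ranked by Pearson correlation over the 6 arrays.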

Additional observations from a re-analysis of the deposited data

Results flagged for a closer look

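Fndc1 drew attention because both leucine arrays lay below both casein arrays while both dairy arrays lay above them. The log2 fold change was −1.13 ± 0.19 for leucine against casein and 0.88 ± 0.19 for dairy against casein (SE, n = 2 arrays each). The difference between these responses is the comparison of leucine with dairy, −2.01 ± 0.19, with an adjusted p of 0.514 by limma over all genes. The flag was sought among the members only. Means ran in the order leucine, casein, dairy in 15.1% of all genes, and how many of those were also separated was not counted. Genes of the lists with the same order without overlap included Col3a1, Cilp, Ddr2, Mfap5, Tgfbr3, Angptl2 and Flna. The pattern was thus not particular to Fndc1. Groups of 2 arrays are too small to look for single outlying arrays by rule.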

How the results depend on the processing

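In the fits with 2 arrays per diet, 0 member values crossed the threshold over all genes. Most alternatives kept each log2 fold change by design. These were the filter, robust limma-trend, the mean over clusters, the fit of only the diets compared and the replicate block. Leaving out an array of the uninvolved diet did the same. Where 2 diets did not overlap, leaving out 1 array could not turn the sign either. Of 216 member values recomputed under the alternatives, 214 kept their direction. The exceptions were Postn for leucine against casein, which ran from −1.22 to 0.20 when single arrays were left out, with the sign turned without leucine array 1, and Fn1 for dairy against casein, which ran from −0.032 to 0.78, with the sign turned without dairy array 1. Without single arrays the median of the members ran from −1.15 to −0.83 for leucine against casein, from 0.16 to 0.51 for dairy against casein and from −1.57 to −1.01 for leucine against dairy. The number of genes called ran from 0 to 1 for leucine against casein and for dairy against casein and stayed at 0 for leucine against dairy when single arrays were left out. The 1 call came without casein array 1 in both comparisons and was Il6, chosen for mention after its value was seen, at 6.97 on casein array 2 and at 1.999 to 2.40 on the other 5. With the replicate block 0 genes were called in each comparison, and Thbs1 for leucine against casein stayed at −1.74 with an adjusted p of 0.402 by limma. Beside the counts of 0 over all genes, limma gave 1394, 696 and 827 genes at an unadjusted p of 0.05 for leucine against casein, dairy against casein and leucine against dairy. With only genes at or above the median gene these were 767, 243 and 443, in a fit with fewer genes. The highest counts were 2776 and 2389 without casein array 1 for leucine and dairy against casein, and 1270 without leucine array 2 for leucine against dairy; the cause was not tested.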
